A study of Danio rerio with 4 samples.

Results

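Canonical Wnt signalling acts by keeping β-catenin from being destroyed, so that it enters the nucleus and switches on target genes together with DNA-binding factors of the TCF/LEF family. Several of these targets encode inhibitors of the pathway itself, which makes them a feedback readout of signalling in vertebrate embryos, for example in the tail bud, the fin fold and the lateral line. The genes described here are such feedback genes and the nuclear factors beside them: *nkd1*, *nkd2a* and *axin2*, which act inside the cell, *znrf3* and *rnf43*, which act at the membrane, *notum1a* and *dkk1b*, which are secreted, and the transcription factors *lef1*, *tcf7* and *sp5l*. They were chosen by name from the pathway, with their differences between these same libraries already known, so their values are a description and carry no test. Of the 10 symbols, 7 had a row among the 31388 genes of the table. The symbol *nkd2a* is listed in RefSeq (assembly GRCz12tu) as another name of *nkd2b*, which is described below as a related gene, and *rnf43* and *sp5l* were not analysed here. Of the 7 genes with a row, 6 had 10 or more normalized counts in at least 2 libraries and so entered the fit across genes, and *dkk1b* did not.

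Poly(A)-enriched RNA from whole zebrafish embryos, collected at 2 dpf, was sequenced in 2 control libraries, labelled WT, and 2 libraries of MZtulp3 embryos, which lack maternal and zygotic *tulp3*. Per the study's methods, the mutant carries a CRISPR/Cas9 allele (*tulp3* uf3/uf3) with the transgene *li1Tg* in the AB/TL background, and MZtulp3 embryos with severe ventral curvature of the body were taken, so that genotype and this selection cannot be told apart. Whether the control embryos also carried the transgene, and how many embryos went into a library, is not given in the sources used here. The libraries are labelled as biological replicates, but nothing says that they came from separate clutches, so the spread given below is that between these samples. The comparison asks which genes differ in RNA level between MZtulp3 and control embryos.

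Between 22589725 and 29735214 reads fell on genes per library, of which 41.0% to 71.1% were on the 13 genes of the mitochondrial genome, with the highest share in MZtulp3 replicate 2. This left 8607137 to 14520032 other reads. A normalized count is the read count divided by a size factor of the library, so a count of 0 allows as many as 3 reads, which is 1.98 to 3.54 normalized counts depending on the library. Such limits, and the intervals below, hold for counting error alone, because the reads carry no molecular identifiers and may be copies of each other. MZtulp3 replicate 2 also had the most gaps. Among genes with at least 100 normalized counts in the other 3 libraries, 83 of 5628 (1.47%) had 3 reads or fewer there, against 0.134% to 0.263% in the other libraries. The *tulp3* gene itself had 36 reads in control replicate 2 and 0 in the other 3 libraries, so it checks the labels little. Some marker sums also separated the groups. The summed normalized counts of 7 of 7 epidermis markers were 184582 and 254434 in control and 475083 and 584161 in MZtulp3 embryos, and those of 8 of 9 neuron markers were 12464 and 19306 in control and 7363 and 10623 in MZtulp3 embryos. No gene of either list was at 0 in every library. The sums of 10 of 10 liver and yolk layer markers, with *ttr* at 0 in every library, also separated, at 6489 and 6569 in control and 14237 and 19607 in MZtulp3 embryos, while those of fast muscle and erythrocyte markers overlapped.

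*nkd1* had the largest log2 fold change of the 6 tested genes, 4.11, and both it and *lef1* had more in each MZtulp3 library than in either control library, while *dkk1b* was read in the control libraries alone. The libraries of *axin2*, *tcf7*, *notum1a* and *znrf3* overlapped between the groups. Across all 14674 genes tested, both MZtulp3 libraries lay above both control libraries for 20.0% and below them for 23.3%, and of the 6 tested feedback and nuclear genes they lay above for 2 and below for 0. *nkd2b*, of which *nkd2a* is listed as another name, is counted with the related genes instead, and both its MZtulp3 libraries lay below the controls. Since this contrast was known when the genes were chosen, nothing is read from these counts. By limma's moderated test across all genes, 0 of the 6 passed an adjusted p of 0.05, beside 0 of 14674 genes (0%), of which 1873 had an unadjusted p under 0.05. The smallest limma adjusted p of any gene was 0.38, which several genes named below share, so it does not rank them. DESeq2 on the recovered reads called 326 of 14343 genes (2.27%), and of the 4 feedback and nuclear genes to which it gave an adjusted p, it called 1, *nkd1*. RNA of whole embryos cannot tell fewer cells of a type from less RNA per cell, which applies to each value below.

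**Figure D1:**
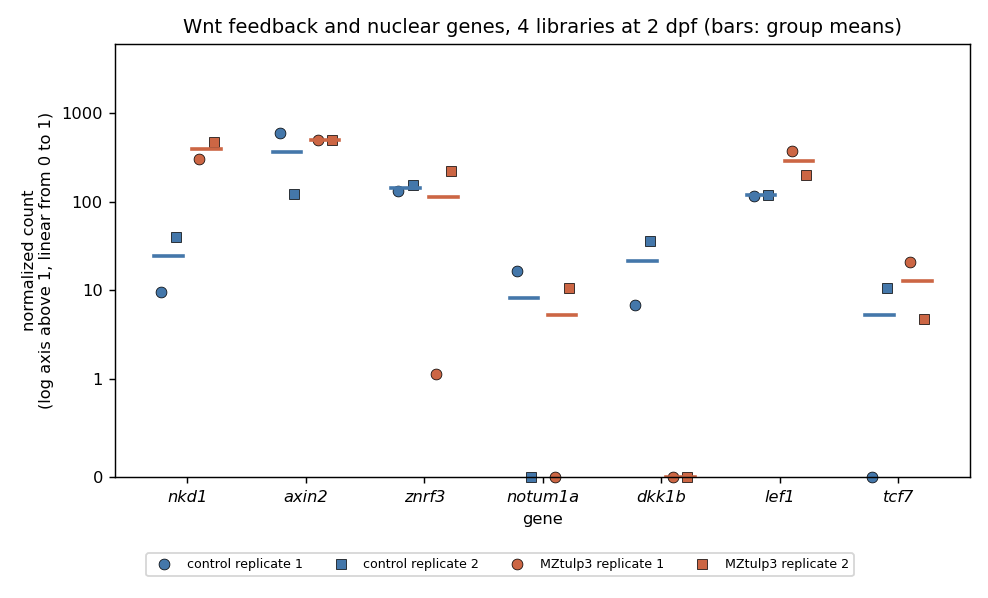
Normalized counts of the 7 genes with a row (y axis, logarithmic above 1 and linear from 0 to 1), with 1 point per library and a bar at the mean of each group of 2 libraries. The MZtulp3 points of *nkd1* and *lef1* lie above both control points, those of *dkk1b* lie at 0, and the other 4 genes overlap. Heights should not be compared between genes, since longer transcripts collect more reads.

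*nkd1* encodes Naked cuticle 1, which is induced by Wnt signalling and binds Dishevelled, the protein that passes the signal on from the receptors. It had 9.63 normalized counts in control replicate 1 and 39.6 in control replicate 2. In MZtulp3 replicates 1 and 2 it had 299 and 476. The lowest MZtulp3 library was thus far above the highest control library. The means were 24.6 ± 21.2 in control and 387 ± 125 in MZtulp3 embryos (SD, n = 2), with a log2 fold change of 4.11 (standard error 1.08) on the scale of log2(normalized count + 2). In reads these were 10 and 60 in control, with exact Poisson 95% intervals of 4.80 to 18.4 and 45.8 to 77.2, and 261 and 403 in MZtulp3 embryos, with intervals of 230 to 295 and 365 to 444. The control replicates therefore differed from each other by more than counting error, by a factor of 3.58 after adding 2 to each. Leaving out each library in turn gave log2 fold changes from 3.19, without control replicate 1, to 5.03, without control replicate 2.

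*axin2* encodes the inducible scaffold of the complex that destroys β-catenin and is often used as a reporter of canonical Wnt signalling. Its normalized counts were 598 and 121 in control replicates 1 and 2. They were 495 and 491 in MZtulp3 replicates 1 and 2. The MZtulp3 libraries were nearly equal and both lay between the control libraries. The mean was 360 ± 337 in control and 493 ± 2.57 in MZtulp3 embryos (SD, n = 2). The log2 fold change of 0.86 (standard error 0.74) became 2.00 without control replicate 1 and −0.28 without control replicate 2, so its direction rests on which control library is used. By DESeq2 it was 0.46. The 2 control libraries differed by a factor of 4.86 in *axin2*, where the median over the 6944 tested genes whose mean lay between 100 and 1000 normalized counts was 1.53 between the control libraries and 1.66 between the MZtulp3 libraries. These libraries had 621 and 184 reads of *axin2*, with exact Poisson 95% intervals of 573 to 672 and 158 to 213, which do not overlap.

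*znrf3* encodes a membrane ubiquitin ligase that removes Frizzled receptors from the cell surface and is itself a Wnt target. It had 133 and 155 normalized counts in control replicates 1 and 2. It had 1.15 in MZtulp3 replicate 1 and 224 in replicate 2. A single MZtulp3 library thus lay far below the other 3 libraries, and the other one lay above both controls. The low value is 1 read, with an exact Poisson 95% interval of 0.0253 to 5.57 reads, against 190 reads in the other MZtulp3 library. The log2 fold change was −2.45 (standard error 2.02), and it was 0.64 without MZtulp3 replicate 1 and −5.53 without MZtulp3 replicate 2. With all 4 libraries it was −0.35 by DESeq2 and −0.38 by edgeR with TMM, which compare means of reads where limma compares means of logarithms. *znrf3* is 1 of 14 among 5315 genes (0.263%) that had 3 reads or fewer in MZtulp3 replicate 1 and at least 100 normalized counts in each of the other libraries.

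The secreted inhibitors were read little. *notum1a* encodes a carboxylesterase that removes the palmitoleate group of Wnt proteins. It had 16.4 and 0 normalized counts in control replicates 1 and 2 and 0 and 10.6 in MZtulp3 replicates 1 and 2. Each group thus held a library at 0 and a library with few reads (17 in control and 9 in MZtulp3 embryos), and the log2 fold change of −0.27 (standard error 1.78) took either sign as single libraries were left out, from −1.87 to 1.33. It was −0.62 by DESeq2. *dkk1b* encodes a Dickkopf protein that binds the co-receptor Lrp5/6 and keeps Wnt from it. Its normalized counts were 6.74 and 36.3 in control replicates 1 and 2, from 7 and 55 reads, and 0 in both MZtulp3 libraries. With 3 reads allowed in each MZtulp3 library and the control reads taken as counted, its mean was at least 6.17-fold lower there. By the same rule it was 1.93-fold lower without control replicate 2 and 10.4-fold lower without control replicate 1. The 7 reads of control replicate 1 have an exact Poisson 95% interval of 2.81 to 14.4, which reaches below 3 reads. The 1.93-fold is therefore no firm bound.

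Of the nuclear factors, *lef1* encodes a TCF/LEF protein that mostly acts as an activator with β-catenin and is itself induced by Wnt signalling. It had 116 and 118 normalized counts in control replicates 1 and 2. It had 373 and 202 in MZtulp3 replicates 1 and 2. The control libraries were nearly equal, and both MZtulp3 libraries were above them. The means were 117 ± 1.20 in control and 288 ± 121 in MZtulp3 embryos (SD, n = 2), and the log2 fold change was 1.21 (standard error 0.66). It stayed between 0.77, without MZtulp3 replicate 1, and 1.65, without MZtulp3 replicate 2. *tcf7* encodes another factor of this family. Its normalized counts were 0 and 10.6 in control replicates 1 and 2 and 20.6 and 4.72 in MZtulp3 replicates 1 and 2, from at most 18 reads in a library. The groups overlapped, and the log2 fold change of 1.30 (standard error 1.72) ranged from −0.03 without control replicate 1 to 2.62 without control replicate 2, and from 0.57 to 2.16 with 10 or 0.5 added to each count in place of 2.

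**Figure D2:**
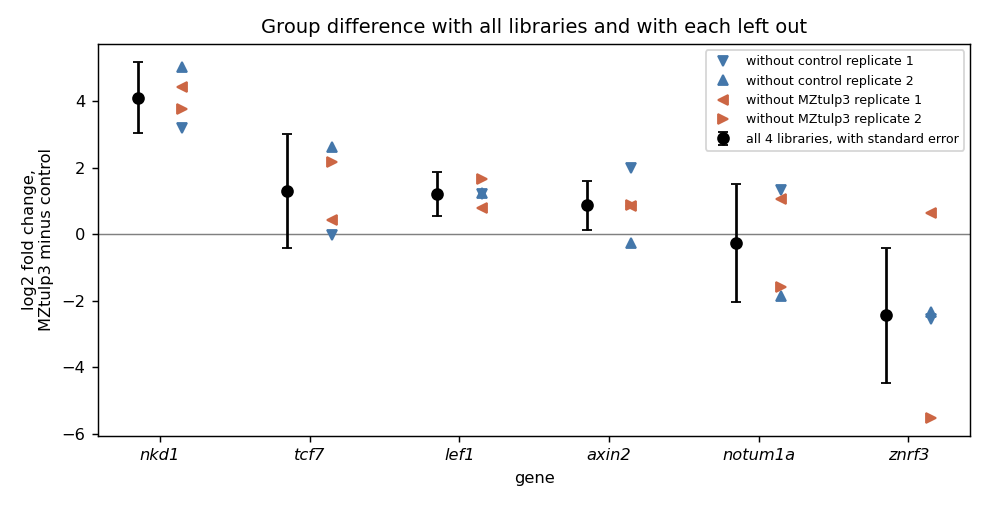
Log2 fold change of MZtulp3 minus control (y axis) for the 6 tested genes, as black points with the standard error for all 4 libraries, and as triangles with each library left out. *nkd1* stayed between 3.19 and 5.03 and *lef1* between 0.77 and 1.65, whereas *axin2*, *tcf7*, *notum1a* and *znrf3* have triangles on both sides of 0.

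The *lef1*, *axin2* and *nkd1* genes are known to be expressed in the tail bud, the fin fold and the lateral line primordium. Of 4 marker lists for tissues with Wnt signalling, 3 had sums that were higher in both MZtulp3 libraries. These were tail bud, fin fold and pectoral fin, and lateral line and otic hair cell, a list that does not single out the primordium. The sum of the midbrain-hindbrain boundary and dorsal neural tube overlapped. For the tail bud, the summed normalized counts of 9 of 9 markers were 678 and 739 in control and 805 and 1606 in MZtulp3 embryos, with *msgn1*, *cdx4*, *noto*, *her1* and *her7* at 0 in every library, and 1 of the 9 had both MZtulp3 libraries above both controls. *tbxta* had 12.5 and 73.9 in control and 42.4 and 36.6 in MZtulp3 embryos. *fgf8a* had 0 and 17.2 in control and 24.0 and 0 in MZtulp3 embryos, and *tbx16* had 3 reads or fewer in each MZtulp3 library. Most of each sum thus came from *hes6* alone. For lateral line and otic hair cells, 7 of 7 markers summed to 826 and 901 in control and 1137 and 1249 in MZtulp3 embryos, with *pou4f3* at 0 in every library. By the sign of the log2 fold change, 3 of the 6 tested lateral line and otic markers were higher and 3 lower (median 0.12). Both MZtulp3 libraries lay above both controls for 3 of these 6 and below them for 0. For the fin fold and pectoral fin, 8 of 8 markers, none at 0 in every library, summed to 1187 and 1553 in control and 1695 and 2608 in MZtulp3 embryos, and 5 of the 7 tested were higher and 2 lower (median 0.23). For 3 of these 7 both MZtulp3 libraries lay above both controls, and for 0 below them. For the midbrain-hindbrain boundary and dorsal neural tube, 7 of 7 markers, none at 0 in every library, summed to 4346 and 4542 in control and 4468 and 3373 in MZtulp3 embryos, and 2 were higher and 5 lower (median −0.46). Both MZtulp3 libraries lay above both controls for 0 of these 7 and below them for 3, where the shares over all genes are 20.0% and 23.3%. The part of these tissues in the values of *nkd1* and *lef1* was not tested.

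Related genes of the same families showed both directions, and limma's adjusted p missed 0.05 for each of the 19 that were tested of the 21 with a row. Of these 19, both MZtulp3 libraries lay above both control libraries for 7 and below them for 2, where the shares over all genes are 20.0% and 23.3%. The median log2 fold change of the 19 was 0.04, beside −0.09 over all genes tested, but it rested on single libraries, at 0.26 without control replicate 1, 0.82 without MZtulp3 replicate 1 and 0.77 without MZtulp3 replicate 2. The other TCF/LEF genes were read more deeply than *tcf7*. *tcf7l1a*, which encodes a factor known chiefly as a repressor of Wnt targets, had 178 and 69.3 normalized counts in control replicates 1 and 2 and 700 and 509 in MZtulp3 replicates 1 and 2. Both MZtulp3 libraries were far above the controls, with a log2 fold change of 2.40 (standard error 0.63, limma adjusted p = 0.38). Its duplicate *tcf7l1b* had 157 and 122 normalized counts in control and 329 and 389 in MZtulp3 embryos, which gave a log2 fold change of 1.36 (standard error 0.56, limma adjusted p = 0.39). *tcf7l2*, whose product is the main TCF factor of the brain and gut, went the other way. It had 1940 and 2653 normalized counts in control and 1503 and 672 in MZtulp3 embryos, so both MZtulp3 libraries lay below the controls, with a log2 fold change of −1.17 (standard error 0.43, limma adjusted p = 0.38) that was −1.75 without MZtulp3 replicate 1 and −0.59 without MZtulp3 replicate 2. The summed neuron markers given above moved in the same direction, and their part in the *tcf7l2* values was not tested.

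**Figure D3:**
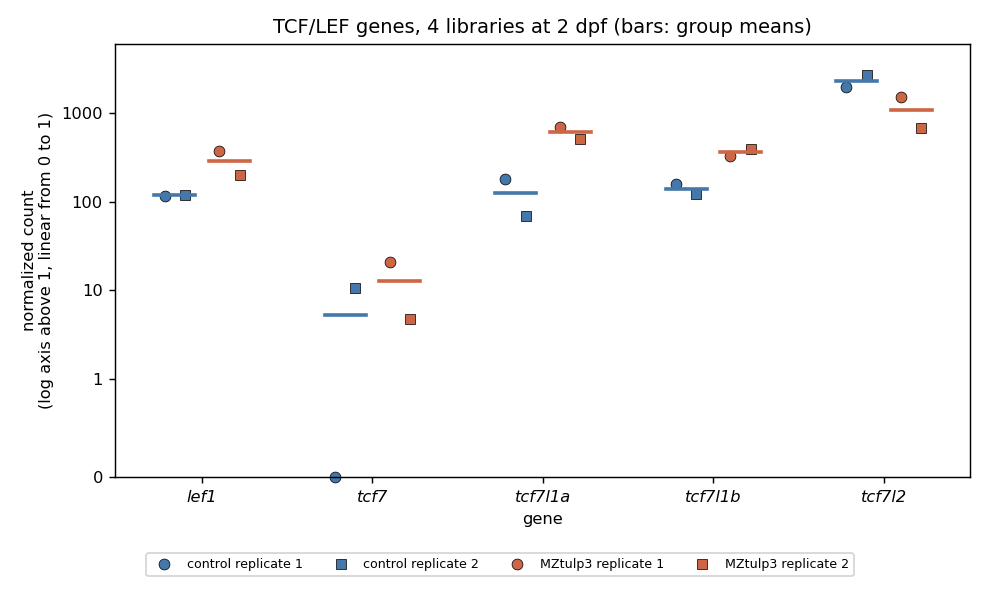
Normalized counts of the 5 TCF/LEF genes (y axis, logarithmic above 1 and linear from 0 to 1), with 1 point per library and a bar at the mean of each group of 2 libraries. The MZtulp3 points of *lef1*, *tcf7l1a* and *tcf7l1b* lie above both control points, those of *tcf7l2* lie below them, and *tcf7* overlaps. Heights should not be compared between genes, since longer transcripts collect more reads.

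In the Naked relatives of *nkd1* the libraries were ordered otherwise. *nkd2b* had 44.3 and 17.2 normalized counts in control replicates 1 and 2 and 0 in both MZtulp3 libraries. With 3 reads allowed per MZtulp3 library and the control reads taken as counted, its mean was at least 8.81-fold lower in MZtulp3 embryos. By the same rule it was at least 4.92-fold lower without control replicate 1 (limma adjusted p = 0.38 with all libraries). *nkd3* had 0 and 188 normalized counts in control and 197 and 0 in MZtulp3 embryos, so each group held a library listed at 0. *axin1*, the constitutive counterpart of *axin2*, had 485 and 372 normalized counts in control and 1298 and 597 in MZtulp3 embryos. Both MZtulp3 libraries of *axin1* were above the controls, with a log2 fold change of 1.05 (standard error 0.47, limma adjusted p = 0.41) that was 0.49 without MZtulp3 replicate 1 and 1.61 without MZtulp3 replicate 2. Reads shared between close copies of a gene were divided by the counting program, so the values of such copies are less certain.

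The Sp genes encode zinc finger factors, of which *sp5a* and *sp5l* are known Wnt targets. *sp5a* had 87.6 and 155 normalized counts in control replicates 1 and 2 and 10.3 and 208 in MZtulp3 replicates 1 and 2. As with *znrf3*, MZtulp3 replicate 1 was far below the other 3 libraries, and the log2 fold change of −1.22 (standard error 1.52, limma adjusted p = 0.78) was 0.82 without it and −0.16 by DESeq2 with all libraries. Both MZtulp3 libraries were above both control libraries for *sp1*, *sp2*, *sp6* and *sp8a*. Their log2 fold changes ran from 1.48 (*sp8a*) to 3.70 (*sp6*), with limma adjusted p-values from 0.40 to 0.50. For *sp1*, *sp2* and *sp6* these rest on a control library with few reads. Control replicates 1 and 2 had 116 and 6 reads of *sp1*, 3 and 20 of *sp2*, and 0 and 36 of *sp6*. By DESeq2 the log2 fold change was 1.75 for *sp1*, 3.79 for *sp2* and 2.95 for *sp6*. The libraries of *sp3a*, *sp4*, *sp7*, *sp8b* and *sp9* overlapped, with log2 fold changes from −1.03 (*sp7*) to 0.57 (*sp9*). Among relatives of the secreted inhibitors, *notum2*, *dkk3a* and *dkk3b* overlapped, with log2 fold changes of −0.73, 2.02 and −2.86. These depend on the added count, since each gene had a library at 0. The library was MZtulp3 replicate 1 for *notum2*, control replicate 1 for *dkk3a* and MZtulp3 replicate 2 for *dkk3b*. By DESeq2 the log2 fold changes were 0.06, 0.69 and −0.90. *dkk1a* was read in MZtulp3 replicate 2 alone, at 29.5 normalized counts, and *dkk2* in no library.

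The rest of the pathway was described through 6 lists written by role, of which 107 genes were tested. Of these, 61 were higher and 46 lower in MZtulp3 embryos by the sign of the log2 fold change, 28 (26.2%) had both MZtulp3 libraries above both controls, 23 (21.5%) had them below, and 0 were called by limma or by DESeq2. At an unadjusted p under 0.05 by limma, 5 were higher and 9 lower (13.1% of the 107), close to the 708 higher and 1165 lower over all genes (12.8% of 14674). The median log2 fold change was 0.22, beside −0.09 over all genes tested, of which 6920 were higher and 7754 lower. It ranged from 0.11 to 0.29 as each library was left out.

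The list of the destruction complex, which holds β-catenin low, also held partners that do not, such as the Dishevelled genes. Of its 24 tested genes, 18 were higher and 6 lower, with a median of 0.63, and 0 passed the test. The median was 0.26 without control replicate 2. The genes encoding β-catenin itself are in this list. *ctnnb2* had 1987 and 557 normalized counts in control replicates 1 and 2 and 1992 and 3410 in MZtulp3 replicates 1 and 2, with the lowest MZtulp3 library at about the level of the highest control. Its log2 fold change was 1.31 (standard error 0.59, limma adjusted p = 0.42), which moved to 0.39 when control replicate 2 was left out and to 2.22 when control replicate 1 was. *ctnnb1*, named after its values were seen, had 6461 and 2846 normalized counts in control and 8843 and 11146 in MZtulp3 embryos, both above the controls, with a log2 fold change of 1.21 (standard error 0.40, limma adjusted p = 0.38) that ranged from 0.62 to 1.80 without the same libraries. *csnk1e*, a casein kinase that acts on Dishevelled, had 795 and 601 normalized counts in control and 116 and 246 in MZtulp3 embryos. Both MZtulp3 libraries lay below the controls, with a log2 fold change of −2.02 (standard error 0.53, limma adjusted p = 0.38).

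The list of nuclear partners of β-catenin also held genes whose products act against β-catenin, such as the *tle* genes and *ctnnbip1*. Of its 27 tested genes, 16 were higher and 11 lower, with a median of 0.22 and 0 past the test. The median was 0.14 without control replicate 2, 0.04 without MZtulp3 replicate 1 and 0.09 without MZtulp3 replicate 2. The highest and the lowest at a mean of at least 100 normalized counts were *tcf7l1a* and *tcf7l2*, given above. Few genes of the list of ligands were read deeply enough. Those tested include *wls*, *rspo1*, *rspo2* and *rspo3*, which do not encode Wnt proteins. Of 10 tested, 4 were higher and 6 lower, with a median of −0.27 that turned to 0.14 without MZtulp3 replicate 2. *wnt7aa*, a ligand gene of the nervous system, had 398 and 471 normalized counts in control and 90.5 and 53.1 in MZtulp3 embryos. Both MZtulp3 libraries lay far below the controls, with a log2 fold change of −2.61 (standard error 0.66, limma adjusted p = 0.38). *wnt4b* had 140 and 57.4 normalized counts in control and 180 and 31.9 in MZtulp3 embryos, so its groups overlapped (log2 fold change −0.23, standard error 1.23, limma adjusted p = 0.97), and its sign turned without control replicate 1 (0.40) or without MZtulp3 replicate 2 (0.99).

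Of 13 tested receptor genes, 7 were higher and 6 lower, with a median of 0.14 (−0.02 with DESeq2, by which 6 of 13 were higher) that was −0.36 without control replicate 1 and −0.60 without MZtulp3 replicate 2. *lgr4*, a receptor for R-spondins, had 194 and 127 normalized counts in control and 224 and 2.36 in MZtulp3 embryos. The low library was a single one, MZtulp3 replicate 2, which had the most gaps, as given above. The log2 fold change of −2.34 (standard error 1.88, limma adjusted p = 0.64) was 0.51 without this library and −0.50 by DESeq2 with all libraries. The Frizzled gene *fzd7b* had 36.6 and 129 normalized counts in control and 67.6 and 307 in MZtulp3 embryos, which overlapped (log2 fold change 1.04, standard error 1.15, limma adjusted p = 0.75). Without MZtulp3 replicate 2 its log2 fold change was −0.03. Of 13 tested secreted antagonists, 4 were higher and 9 lower, with a median of −0.80 that was 0.34 without MZtulp3 replicate 2, and by DESeq2 8 of the 13 were higher, with a median of 0.06. *trabd2a*, in this list although it encodes a membrane-bound metalloprotease that cleaves Wnt proteins, had 198 and 104 normalized counts in control. It had 97.3 and 31.9 in MZtulp3 embryos (log2 fold change −1.33, standard error 1.05, limma adjusted p = 0.64). *wif1*, which encodes a secreted protein that binds Wnt, had 61.6 and 182 in control and 135 and 537 in MZtulp3 embryos (log2 fold change 1.33, standard error 0.92, limma adjusted p = 0.59). As each library was left out, the log2 fold change of *trabd2a* ran from −2.11 without MZtulp3 replicate 1 to −0.56 without MZtulp3 replicate 2, and that of *wif1* from 0.34 without MZtulp3 replicate 2 to 2.32 without MZtulp3 replicate 1.

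The list of other Wnt-induced genes holds *nkd2b* and *sp5a* beside less direct targets. It also holds *axin1*, described above as constitutive and counted in the list of the destruction complex as well. Of its 21 tested genes, 13 were higher and 8 lower, with a median of 0.32. This median changed to 0.20 without control replicate 1 and to 0.57 without the other control library. Both MZtulp3 libraries lay above both controls for 8, *axin1* among them, and below them for 2, beside 20.0% and 23.3% over all genes. By limma or by DESeq2, 0 passed the test. The median of the 6 feedback and nuclear genes, chosen with their values known, was 1.04, and 0.47 without control replicate 2. Neither *dkk1b*, which was not tested, nor *nkd2b* is among the 6, and both genes were at 0 in both MZtulp3 libraries. Without the filter, which lets *dkk1b* in, the median was 0.86.

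**Figure D4:**
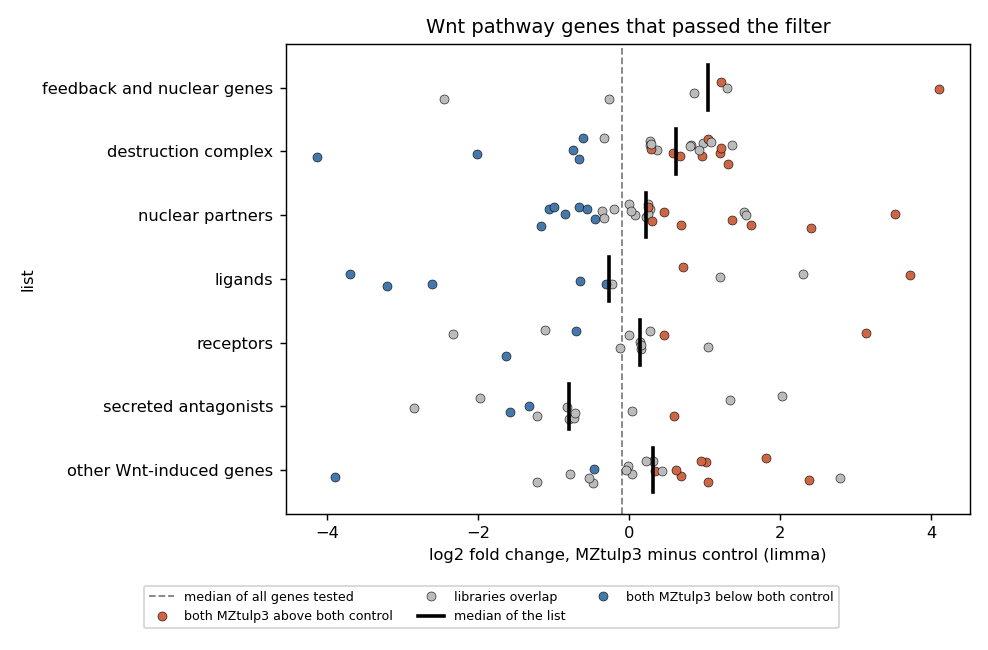
Log2 fold change of MZtulp3 minus control (x axis) of each tested gene, in rows for the 6 feedback and nuclear genes and for the 6 pathway lists, coloured by whether the libraries of the groups overlap. Black lines mark the median of each row, from −0.80 for secreted antagonists to 1.04 for the feedback and nuclear genes, and the dashed line the median of all genes tested, −0.09. The row of the 6 genes holds neither *dkk1b*, which was not tested, nor *nkd2b*. The values of genes with a library at or near 0 depend on the added count of 2.

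The genes whose pattern over the 4 libraries was nearest to that of *nkd1*, by the Euclidean distance between log2(normalized count + 2) values centred per gene, were *lix1* (distance 0.17), *mmp9* (0.21) and *adam9* (0.29), among 14674 tested genes. *lix1* had 2 and 16 reads in the control replicates and 83 and 141 reads in the MZtulp3 replicates. *mmp9*, which encodes a secreted matrix metalloproteinase, had 0 and 6.60 normalized counts in control and 52.7 and 93.2 in MZtulp3 embryos. *adam9*, which encodes a membrane metalloprotease, had 0 and 5.94 normalized counts in control and 45.8 and 96.8 in MZtulp3 embryos. Like *nkd1*, each was lowest in control replicate 1 and highest in MZtulp3 replicate 2, which follows from how they were picked. *mmp9* and *adam9* were at 0 in control replicate 1 and *lix1* had 2 reads there, so all 3 distances also depend on the added count of 2. The likeness is over 4 libraries.

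The nearest tested genes on each side of the 7 feedback and nuclear genes were taken from the gene order of RefSeq (GRCz12tu, another assembly than the authors'). Genes that were not tested were skipped, so these neighbours need not be adjacent. Of these 14 neighbours, 3 had both MZtulp3 libraries above both controls, 4 had them below, and 7 overlapped. Over all genes tested, 20.0% lay above and 23.3% below. The neighbours of *nkd1* by this rule were *nod2* and *brd7*. *nod2* had 50.1 and 15.8 normalized counts in control and 3.44 and 0 in MZtulp3 embryos, opposite to *nkd1*, and *brd7* had 1083 and 994 in control and 871 and 1095 in MZtulp3 embryos, which overlapped. Both neighbours of *lef1*, *cracdlb* and *gstcd*, overlapped between the groups.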

How the data were processed

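RNA of 4 libraries (2 control, 2 MZtulp3) was analysed. Per the labels and methods, the authors used Trim Galore, STAR and RSEM on GRCz10, and DESeq2. The signal values deposited by the authors, named counts, are counts divided by size factors (0.847 to 1.51), and 100% gave whole numbers within 1e-06, called reads here. RSEM divides reads that genes share, so these numbers may be rounded estimates. Deposited rlog values and the authors' own comparison columns (mean, log2 fold change, its standard error, p-value, adjusted p) were not used. Main test was limma 3.58.1 with a trend (R 4.3.3) on log2(normalized count + 2), for genes with at least 10 in 2 libraries, group the only term, Benjamini-Hochberg over 14674 genes, threshold 0.05. DESeq2 1.42.0 and edgeR 4.0.16 on recovered reads, other scaling, pseudocounts and filters, a replicate term and leaving out each library were alternatives. Only the main limma fit, DESeq2 and edgeR with TMM were run on simulated data. Genes and lists were chosen with earlier results of these data known. Named were all 10 genes, tested relatives, the highest and lowest gene per list at a mean of at least 100, pathway genes past 0.05 by limma or DESeq2, and the 3 genes nearest to *nkd1*. The neighbours and *ctnnb1* were added with their values seen. The table has a symbol for 21779 genes, and reference names gave 4610 more.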

Additional observations from a re-analysis of the deposited data

How the results depend on the processing

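The number of genes past an adjusted p of 0.05, 0 with limma, was 326 with DESeq2 on recovered reads (2167 at an unadjusted p under 0.05), 112 when each library had to reach 10 normalized counts and 329 with the replicate number as a block. It was 0 with edgeR under either scaling (1427 genes at an unadjusted p under 0.05 with TMM, 1435 with DESeq2's size factors) and with each library left out. Of the feedback and nuclear genes, 1 was called by DESeq2 and 0 under each other alternative, of which the one that asked for 10 in every library tested only *axin2* and *lef1* of them. Of the pathway lists, 5 genes were called with the replicate block and 0 otherwise: *tcf7l1a* (2.40), *tcf7l2* (−1.17), *csnk1e* (−2.02), *ctnnb2* (1.31) and *ctnnb1* (1.21), with the same log2 fold changes. The deviations of same-numbered libraries had a Pearson correlation of −0.00286 over 14674 genes and no label ties the numbers, so the block shares a number and no known pairing. The log2 fold change of *nkd1* kept its sign in 12 of 12 alternatives and that of *lef1* in 13 of 13, while the sign was the other one in 1 of 13 for *axin2*, 1 of 12 for *tcf7*, 2 of 12 for *notum1a* and 1 of 12 for *znrf3*. For *nkd1* and *lef1*, both MZtulp3 libraries lay above both controls, so leaving out a library, another added count or the block could not have turned the sign. With each library left out, the median of the 6 tested ranged from 0.47 to 1.27, *wnt4b* from −1.44 to 0.99, *sp5a* from −3.27 to 0.82, *lgr4* from −5.19 to 0.51 and *fzd7b* from −0.034 to 2.12. *wnt4b* was at 0.10 with DESeq2 and at 0.11 and 0.10 with edgeR (TMM and DESeq2's size factors). The median of the secreted antagonists, −0.80, was −1.55 with 0.5 and −0.16 with 10 added to each count in place of 2. Over the 4 of its genes with 10 in every library it was 0.32. The causes were not tested. The search of promoters for TCF/LEF motifs was not run, since no sequence was at hand. With 2 libraries per group, a permutation test of 1 gene cannot give a two-sided p under 0.333.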
